A study of Mus musculus with 9 samples.

Results

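The genes described here encode the acid hydrolases of the lysosome, the activator and membrane proteins that work beside them, and subunits of the proton pump that acidifies the organelle. They were taken from a list of 43 gene symbols. A gene was represented by whichever of its probe sets was brightest on average over the 9 arrays and was kept if that probe set reached a log2 expression value of 6 on at least 1 array. Of the 43 genes, 41 were named by a probe set with that symbol alone in the platform annotation used, and all 41 passed this filter, among 10032 genes in the whole series. Cd63 and Atp6v0d2 were named by none and are not analysed here. By role the 41 genes were 11 cathepsins and other proteases, 9 glycosidases and a sulfatase counted together, 7 lipid hydrolases and lipid-binding activators, 6 membrane proteins and channels, and 8 proton pump subunits.

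Total RNA came from peritoneal macrophages elicited with thioglycollate, an irritant broth, in wild-type mice, in MyD88-/- mice (MyD88 KO) and in TRIF-/- mice (TRIF KO). MyD88 and TRIF are the adaptor proteins through which Toll-like receptor 4 signals when it meets bacterial lipopolysaccharide (LPS). The cells of each genotype had 0, 1 or 4 h of LPS at 100 ng/ml, so the 9 groups were wild type, MyD88 KO and TRIF KO at each of the 3 times, with 1 Affymetrix array a group. All groups, the wild-type ones included, came from cells recruited by thioglycollate. The labels give no allele design, background strain, age or sex of the mice and do not say whether mice were pooled. They also do not state that separate mice or cultures lie behind the arrays of 1 genotype, so every p-value reflects the spread among these arrays alone, and that spread may be technical.

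Lysosomes break down proteins, glycans and lipids that reach them by endocytosis, phagocytosis and autophagy. Their hydrolases work at acid pH, which the vacuolar proton pump sets up by coupling ATP hydrolysis in its V1 sector to proton passage through its membrane-bound V0 sector. In macrophages the same enzymes digest engulfed microbes and cells, prepare antigens for presentation and process some Toll-like receptors. Many lysosomal genes carry a palindromic element in their promoters that the transcription factors TFEB, TFE3 and MITF bind.

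The promoters of the listed genes were searched for this element, which played no role in their choice and which most of them did not hold. Promoter windows of 300 bases, from 250 bases before to 50 bases after the annotated start, were taken from RefSeq (GRCm38.p6) and matched 34 of the 43 listed symbols. The genes without a window, Atp6v1b2, Ctsh and Atp6v1c1 among them, were not searched. TCACGTGA was found in 6 of the 34 (17.65%), against 304 of 27025 genes with a window (1.125%). The shorter CACGTG, which lies inside the longer motif, was found in 11 of the 34 (32.35%), against 2187 of all genes (8.093%). Both motifs read the same on both strands, and a match is a description of letters, not of a bound site. The 6 genes with TCACGTGA were Atp6v0d1, Atp6v1a, Ctsa, Ctsd, Gla and Mcoln1, and Ctsl, Gaa, Glb1, Lamp1 and Lgmn held the shorter motif alone. The stretches below run 5′ to 3′ on the strand of the gene, with each match in capitals, for the 6 genes with the longer motif and for Gaa and Lgmn, which changed in the comparisons that follow.
Mcoln1 (chr8:3500443-3500510, plus strand): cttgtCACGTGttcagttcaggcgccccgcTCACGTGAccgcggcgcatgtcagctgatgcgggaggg
Gla (chrX:134601163-134601255, minus strand): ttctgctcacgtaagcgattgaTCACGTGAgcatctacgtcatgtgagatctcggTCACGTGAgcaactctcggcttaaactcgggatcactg
Ctsa (chr2:164833730-164833814, plus strand): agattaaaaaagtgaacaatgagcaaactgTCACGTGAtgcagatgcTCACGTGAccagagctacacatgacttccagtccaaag
Ctsd (chr7:142387889-142387956, minus strand): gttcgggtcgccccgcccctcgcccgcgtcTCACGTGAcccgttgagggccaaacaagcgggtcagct
Atp6v0d1 (chr8:105566031-105566098, minus strand): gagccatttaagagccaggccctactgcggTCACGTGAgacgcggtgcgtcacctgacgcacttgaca
Atp6v1a (chr16:44139354-44139421, minus strand): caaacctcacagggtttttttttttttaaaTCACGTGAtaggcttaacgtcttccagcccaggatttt
Gaa (chr11:119267793-119267858, plus strand): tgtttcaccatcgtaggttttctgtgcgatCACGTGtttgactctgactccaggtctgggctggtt
Lgmn (chr12:102439106-102439171, minus strand): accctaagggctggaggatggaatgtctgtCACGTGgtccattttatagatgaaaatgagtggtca

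The lysosomal genes gave some of the brightest probe sets of these macrophages. The mean log2 expression value over the 9 arrays lay between 8.88 and 14.23, and 32 of the 41 genes were in the top 10% of all genes. A mean of at least 13 was reached by 11 of them and by 64 genes in the whole series. The brightest included Psap, the precursor of the saposins that help enzymes reach sphingolipids, and the endopeptidases Ctsb and Ctsd. The highest value of any probe set lay between 14.76 and 14.87 on the 9 arrays, so these genes sat close to the top of the scale, where differences may be compressed. The range over the 9 arrays was under 0.2 for 13 of the 41 genes, and its median was 0.33 over the lysosomal genes and 0.32 over all genes. Array medians lay between 7.01 and 7.07. All 9 macrophage markers passed the filter, among them Adgre1 (F4/80) and Csf1r (the M-CSF receptor). The log2 of their summed signal lay between 15.45 and 15.62, but it was weighted to the brightest of them, Lyz2 and Csf1r.

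**Figure D1:**
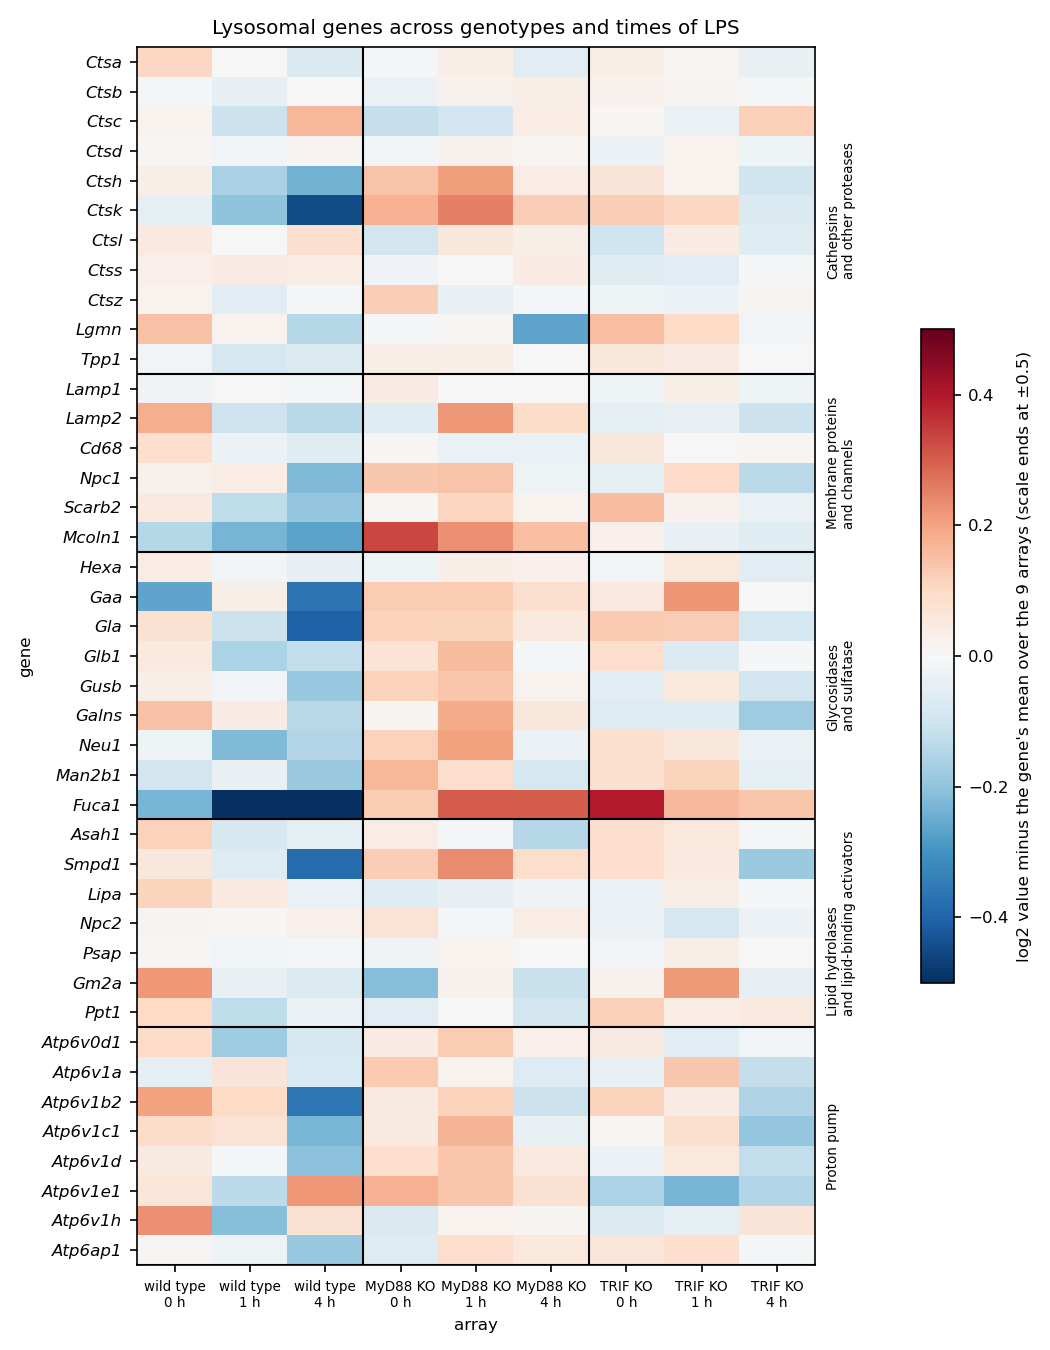
Log2 expression values of the 41 lysosomal genes (rows, ordered by role) on the 9 arrays (columns, by genotype and hours of LPS), each as the difference from the mean of that gene over the 9 arrays. The colour scale ends at a difference of 0.5 in either direction, which Fuca1 passes on the wild-type arrays at 1 and 4 h; most rows stay pale, and the wild-type array at 4 h holds many of the lower values.

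Setting each LPS array against the unstimulated array of its genotype, and each knockout against wild type at the same time, no lysosomal gene differed by 2-fold, against 169 genes of the series (1.68%) at 4 h of LPS in wild type. After 4 h in wild type, 33 of the 41 lay below the unstimulated array, with a median log2 difference of -0.15 against 0.01 over all genes. The differences ran from -0.56 for Atp6v1b2 to 0.16 for Atp6v1e1. In TRIF KO 31 of the 41 lay below, with a median of -0.07, and in MyD88 KO 26 of the 41, with a median of -0.04, against -0.02 and -0.04 over all genes. Each of these sets 1 array against 1 array and has no replicate check. In bulk RNA of this kind, fewer cells of a type and less RNA per cell cannot be told apart.

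To test the times, limma was fitted to all 9 arrays with genotype and time as additive terms, so that the 3 genotypes stood in for replicates of a time point, and p-values were adjusted by Benjamini-Hochberg over the 10032 genes with a threshold of 0.05. At 1 h, 0 lysosomal genes passed in limma, against 29 genes in all (0.289%). An unadjusted p under 0.05 was seen for 0 of the 41, against 5.41% of all genes. Their estimates lay between -0.14 and 0.16. At 4 h, 2 of the 41 fell and 0 rose, against 715 genes that fell (7.13%) and 463 that rose (4.62%), so the share that fell was 4.88%, below that of all genes. At an unadjusted p under 0.05 there were 12 of the 41 (29.3%), against 23.9% of all genes. The median estimate was -0.08 against -0.02 over all genes, and 33 of 41 estimates (80.5%) were negative against 55.3% of all genes. After centring the arrays on reference transcripts, 29 of 41 were negative, and after centring on the median gene, 31. Some markers of cell types were called at 4 h as well. Of the 9 macrophage markers Cd14 rose and Mertk and Fcgr1 fell. Of 8 neutrophil markers past the filter 1 fell (Mmp8), and of 6 B cell markers 1 (Cd22), against 7.13% of all genes. No other marker of these 2 lists was called. In wild type the log2 level of Mertk went from 9.22 at 0 h to 8.06 at 4 h and that of Cd14 from 11.17 to 12.28. The part of these changes in the lysosomal genes was not tested.

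The gene that fell most was Atp6v1b2, the B subunit of the V1 sector that helps to form the ATP-binding sites of the pump. Its log2 expression value at 0, 1 and 4 h was 12.71, 12.61 and 12.15 in wild type, 12.55, 12.62 and 12.40 in MyD88 KO and 12.62, 12.55 and 12.36 in TRIF KO. In each genotype the array at 4 h was the lowest, and none of the 3 overlapped the 6 earlier arrays. The level at 4 h fell by 0.33 ± 0.0792 (SE) (log2; limma, Benjamini-Hochberg adjusted p = 0.0176, 3 of 3 genotypes). Of its other 2 probe sets, 1 had an estimate of -0.23, and the other had a mean of 6.10, close to the filter, and an estimate of 0.02. With the mean of its probe sets in place of the brightest, the estimate was -0.18 and was not called (limma, Benjamini-Hochberg adjusted p = 0.128); over all alternatives the adjusted p lay between 0.00527 and 0.135.

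Lgmn, which encodes legumain, a protease that cuts after asparagine and matures several cathepsins, was the other gene that fell. The log2 expression value at 0, 1 and 4 h was 12.83, 12.70 and 12.54 in wild type, 12.68, 12.69 and 12.42 in MyD88 KO and 12.84, 12.79 and 12.67 in TRIF KO. The array at 4 h was again the lowest of each genotype, although the value of TRIF KO at 4 h was near that of the early MyD88 KO arrays. The level fell by 0.24 ± 0.0642 (limma, Benjamini-Hochberg adjusted p = 0.0303, 3 of 3 genotypes). The count of 2 depended on several arrays. It was 0 without the unstimulated wild-type array, without the wild-type array at 4 h or without the unstimulated TRIF KO array, 1 without either of the other TRIF KO arrays, and 7 without the unstimulated MyD88 KO array. Either centring left 1 gene.

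Other genes had estimates of similar size that did not pass. Gla, the alpha-galactosidase that removes terminal galactose from glycolipids, read 10.49, 10.31 and 10.01 in wild type, 10.53, 10.53 and 10.46 in MyD88 KO and 10.55, 10.54 and 10.33 in TRIF KO (log2 expression values at 0, 1 and 4 h). The wild-type array at 4 h was the lowest of the 9, and the estimate at 4 h was -0.26 (limma, Benjamini-Hochberg adjusted p = 0.0517). Smpd1, acid sphingomyelinase, read 9.69, 9.57 and 9.25 in wild type, 9.76, 9.87 and 9.72 in MyD88 KO and 9.72, 9.69 and 9.45 in TRIF KO, with an estimate of -0.25 (limma, Benjamini-Hochberg adjusted p = 0.0551). For Smpd1 the wild-type and TRIF KO arrays at 4 h were the lowest of the 9, and the MyD88 KO array at 4 h lay among the unstimulated values. Atp6v1c1, the C subunit that links the stator of the pump to its membrane sector, read 11.97, 11.95 and 11.65 in wild type, 11.92, 12.04 and 11.84 in MyD88 KO and 11.88, 11.96 and 11.68 in TRIF KO. All 3 of its arrays at 4 h lay below all earlier ones, and the estimate of -0.20 was not called (limma, Benjamini-Hochberg adjusted p = 0.0737). Its other 2 probe sets had estimates of -0.34 and -0.31, and it was among the genes called with the mean of all probe sets. Against 1 h in place of 0 h, the level at 4 h fell by 0.26 for Atp6v1c1 (limma, Benjamini-Hochberg adjusted p = 0.0252) and by 0.29 for Atp6v1b2 (limma, Benjamini-Hochberg adjusted p = 0.0350), the 2 of the 41 that were lower there, against 578 genes in all (5.76%).

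The 4 h array lay below both earlier arrays in all 3 genotypes for 15 of the 41 genes (36.6%), against 16.5% of all genes. These were the proteases Ctsa, Ctsh, Ctsk and Lgmn, the glycosidases Gaa, Gla, Gusb and Man2b1, the sphingomyelinase Smpd1, the cholesterol transporter Npc1, the channel Mcoln1 and the V1 subunits Atp6v1a, Atp6v1b2, Atp6v1c1 and Atp6v1d. After centring on reference transcripts the count was 12 of 41 against 12.5% of all genes, and after centring on the median gene 14 against 14.1%. The arrays are shared between these genes, and no test was made of this difference. The opposite order, with the 4 h array the highest in all 3 genotypes, was seen for Ctsc alone, against 10.5% of all genes. Ctsc encodes dipeptidyl peptidase I, which activates serine proteases of leukocyte granules. Its log2 expression value at 0, 1 and 4 h was 12.09, 11.97 and 12.24 in wild type, 11.96, 11.98 and 12.12 in MyD88 KO and 12.09, 12.04 and 12.20 in TRIF KO, and the estimate of 0.14 was not called (limma, Benjamini-Hochberg adjusted p = 0.204).

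By role, the estimates at 4 h were negative for 9 of 9 genes among the glycosidases and sulfatase (median -0.12, 0 called) and for 6 of 6 membrane proteins (median -0.11, 0 called). After centring on reference transcripts these counts were 8 of 9 and 5 of 6. They were negative for 6 of 7 lipid enzymes and activators (median -0.08, 0 called), for 6 of 8 pump subunits (median -0.09, 1 called) and for 6 of 11 proteases (median -0.04, 1 called). The cathepsins with positive estimates were mostly very bright. Ctsl, which trims the invariant chain and other substrates, read 13.73, 13.68 and 13.76 in wild type, 13.59, 13.74 and 13.71 in MyD88 KO and 13.58, 13.72 and 13.62 in TRIF KO (log2 expression values at 0, 1 and 4 h), with an estimate of 0.07. Ctss, the cathepsin that finishes invariant chain removal in antigen-presenting cells, read 13.71, 13.72 and 13.72, then 13.67, 13.68 and 13.72, then 13.62, 13.63 and 13.68 in the same order of genotypes, with an estimate of 0.04. For both genes the times overlapped. Ctsd read 14.16, 14.138 and 14.165 in wild type, 14.138, 14.173 and 14.159 in MyD88 KO and 14.119, 14.167 and 14.13 in TRIF KO, with an estimate of 0.01.

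**Figure D2:**
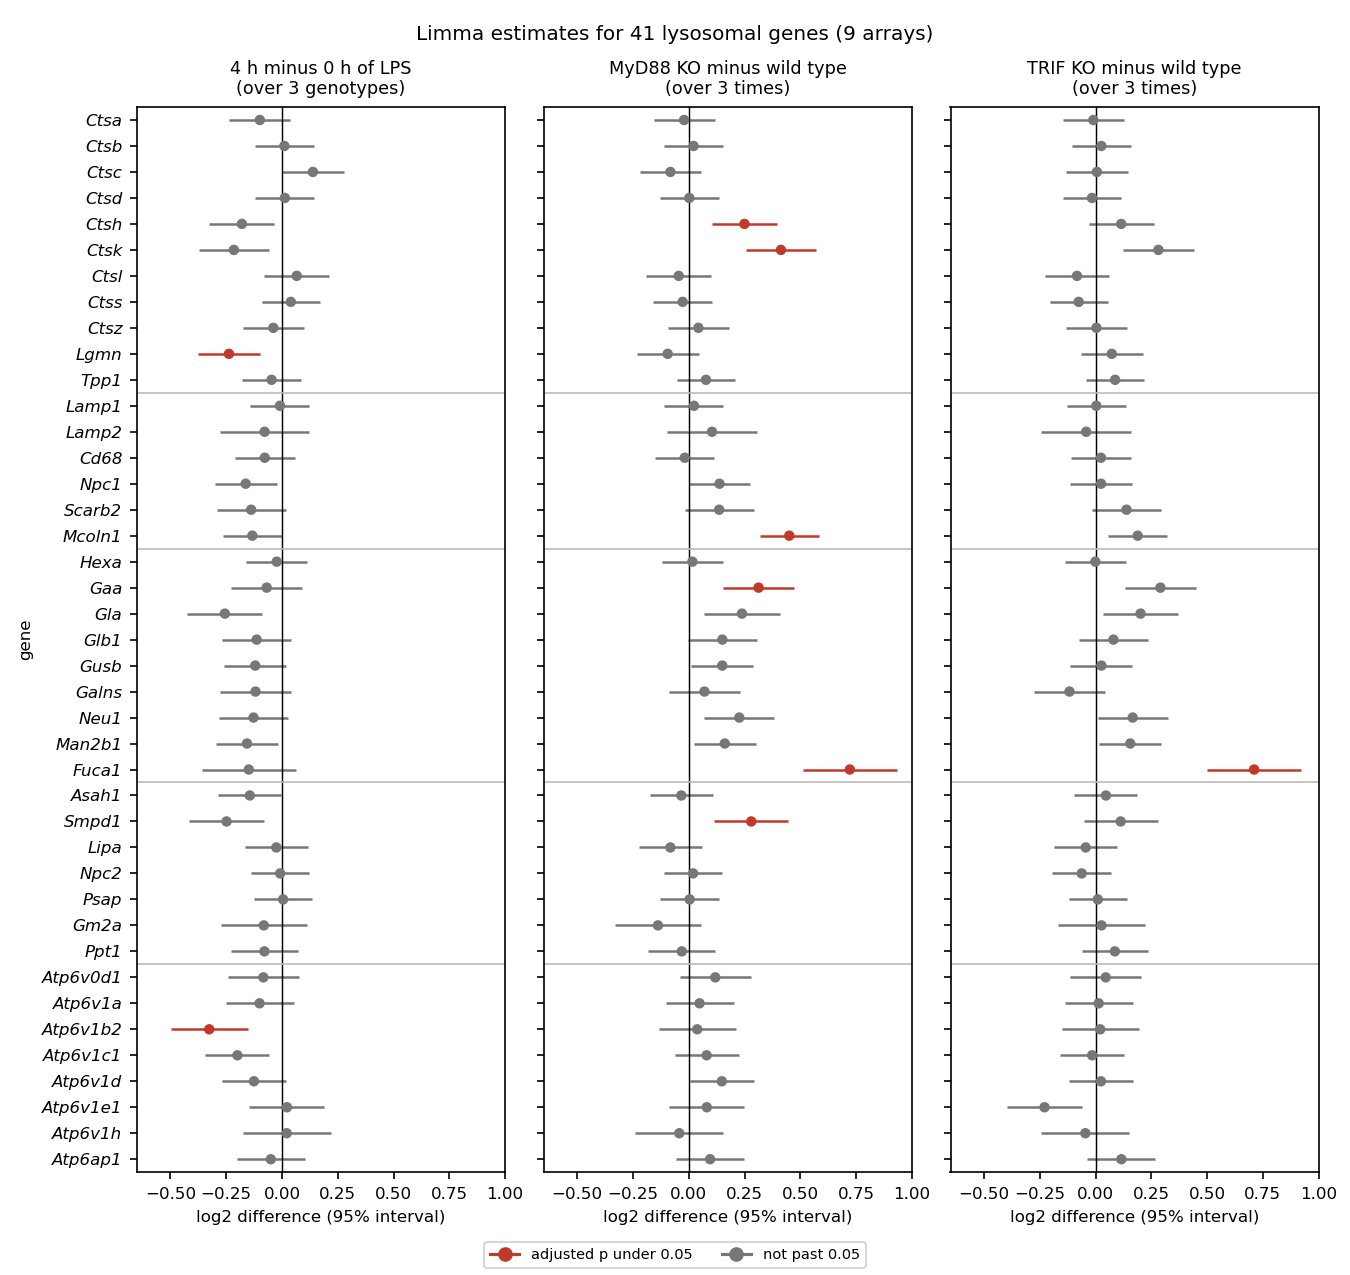
Limma estimates (points) with 95% intervals (lines) for the 41 lysosomal genes, ordered by role, for 4 h against 0 h of LPS over the 3 genotypes, and for MyD88 KO and TRIF KO against wild type over the 3 times; the axis is a log2 difference. Red marks an adjusted p under 0.05, which was reached by 2 genes at 4 h, by 6 in MyD88 KO and by 1 in TRIF KO.

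The proton pump subunits did not share a single course. Atp6v1b2 fell at 4 h, while Atp6v1e1, the E subunit of a peripheral stalk, had an estimate of 0.02. The log2 expression value of Atp6v1e1 at 0, 1 and 4 h was 12.40, 12.20 and 12.55 in wild type, 12.51, 12.47 and 12.41 in MyD88 KO and 12.18, 12.10 and 12.19 in TRIF KO. The 3 TRIF KO arrays lay below all the others on this probe set. The other probe set past the filter, with a mean of 7.17, gave 0.03 for TRIF KO against wild type. Atp6v1h, the H subunit that regulates the coupling of both sectors, read 10.43, 9.98 and 10.27 in wild type, 10.12, 10.22 and 10.21 in MyD88 KO and 10.13, 10.15 and 10.26 in TRIF KO. The wild-type arrays at 0 and 1 h were the highest and the lowest of the 9, and the 4 h estimate was 0.02. The remaining subunits had 4 h estimates of -0.08 for Atp6v0d1 (V0 sector), -0.10 for Atp6v1a (the catalytic A subunit), -0.13 for Atp6v1d (the central stalk) and -0.05 for Atp6ap1 (an accessory protein of the pump), and none passed.

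The response to LPS in each genotype was tested in a further limma fit, in which the 0 h and 1 h arrays of a genotype stood together as early samples against its 4 h array. The late side of each genotype is therefore 1 array, assumed to vary as the early arrays do, and a call says that this array stood apart. In wild type 3 of the 41 genes were lower at 4 h, against 486 genes in all (4.84%). Atp6v1b2 fell by 0.51 ± 0.108 (limma, Benjamini-Hochberg adjusted p = 0.00736), Gla by 0.39 ± 0.111 (limma, Benjamini-Hochberg adjusted p = 0.0443) and Smpd1 by 0.38 ± 0.110 (limma, Benjamini-Hochberg adjusted p = 0.0466). Only Atp6v1b2 was called after centring on reference transcripts, with low values raised to log2 6, or without the unstimulated wild-type array or any of the 0 h and 1 h arrays of either knockout; the array at 4 h itself could not be left out. In MyD88 KO the estimates of the same 3 genes were -0.19, -0.07 and -0.09, and in TRIF KO -0.23, -0.22 and -0.25. No lysosomal gene was called lower in either knockout, against 46 genes (0.459%) in MyD88 KO and 110 (1.1%) in TRIF KO. In limma 1 and 2 of the 41 had an unadjusted p under 0.05 there, in either direction, or 2.44% and 4.88%, against 8.12% and 11.0% of all genes. A call in wild type alone does not show a difference between genotypes. The difference itself passed in limma for 0 of the 41 genes, against 54 genes in all (0.538%), with 0 of the 41 at an unadjusted p under 0.05 for any pair of genotypes, and the smallest p-values were those of Atp6v1b2, Atp6v1e1 and Gla. For Atp6v1b2 the response in MyD88 KO minus that in wild type was 0.32 ± 0.152 (limma, Benjamini-Hochberg adjusted p = 0.804), with a 95% interval from -0.0047 to 0.65. The interval includes 0 and also differences larger than the wild-type response itself. For Atp6v1e1 the same difference was -0.34 (limma, Benjamini-Hochberg adjusted p = 0.806) and for Gla 0.32 (limma, Benjamini-Hochberg adjusted p = 0.816).

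**Figure D3:**
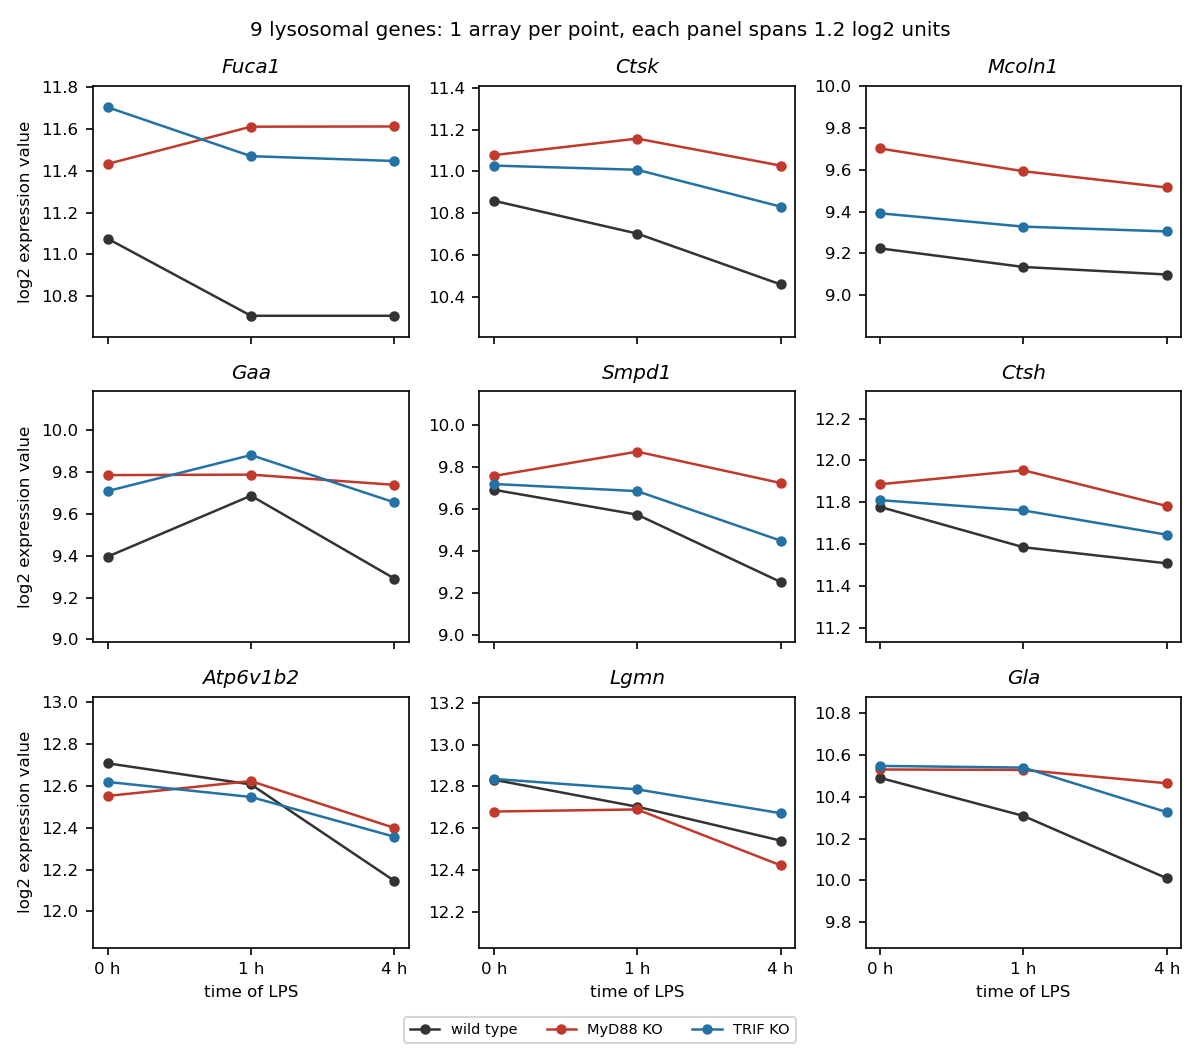
Log2 expression values of 9 lysosomal genes against hours of LPS (0, 1 and 4 h, drawn at equal steps), with 1 array per point and a line for each genotype. The MyD88 KO points lie above all wild-type points for Fuca1, Ctsk, Mcoln1, Gaa, Smpd1 and Ctsh, and the lowest point of each line is at 4 h for Atp6v1b2, Lgmn and Gla.

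The MyD88 KO arrays were then compared with the wild-type arrays over the 3 times, which stood in for replicates of a genotype. By limma 6 of the 41 (14.6%) were higher in MyD88 KO than in wild type, against 457 genes in all (4.56%), and 0 were lower, against 269 (2.68%). At an unadjusted p under 0.05 there were 11 of 41 (26.8%), against 20.4% of all genes. The estimates were positive for 30 of 41 genes, with a median of 0.07 against 0.00 over all genes, and for 28 after either centring. The 6 called genes were the glycosidases Fuca1 and Gaa, the proteases Ctsk and Ctsh, the sphingomyelinase Smpd1 and the channel Mcoln1. All 3 MyD88 KO arrays lay above all 3 wild-type arrays for 9 of the 41, against 8.5% of all genes; the other 3 were Lamp1, Tpp1 and Atp6v1d. No gene had the 3 MyD88 KO arrays all below, against 6.92% of all genes. The count of 6 was 3 without the wild-type array at 4 h or without the MyD88 KO array at 4 h, 3 without the arrays of 1 h and 2 without those of 4 h.

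Fuca1, the alpha-fucosidase that removes fucose from glycoproteins and glycolipids, differed most. Its log2 expression value at 0, 1 and 4 h was 11.08, 10.71 and 10.71 in wild type, 11.43, 11.61 and 11.61 in MyD88 KO and 11.70, 11.47 and 11.45 in TRIF KO. Every array of either knockout was above every wild-type array, and the gap was already there in unstimulated cells. The estimate was 0.72 ± 0.0975 in MyD88 KO, which is 64.9% higher (limma, Benjamini-Hochberg adjusted p = 0.000753, higher at 3 of 3 times). In TRIF KO it was 0.71 ± 0.0975 or 63.6% higher (limma, Benjamini-Hochberg adjusted p = 0.00171, higher at 3 of 3 times). The other 2 probe sets of the gene gave 0.82 and 0.90 in MyD88 KO and 0.87 and 0.86 in TRIF KO. The wild-type arrays are shared by both of these comparisons.

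Mcoln1 encodes TRPML1, the channel that releases calcium from lysosomes. Its log2 expression value at 0, 1 and 4 h was 9.22, 9.13 and 9.10 in wild type, 9.70, 9.59 and 9.51 in MyD88 KO and 9.39, 9.33 and 9.30 in TRIF KO. The 3 genotypes did not overlap, with TRIF KO between the others. The level in MyD88 KO was higher by 0.45 ± 0.0610 (36.6%; limma, Benjamini-Hochberg adjusted p = 0.000755, higher at 3 of 3 times). In TRIF KO the estimate of 0.19 was not called (limma, Benjamini-Hochberg adjusted p = 0.199). Between the knockouts themselves, Mcoln1 was higher in MyD88 KO by 0.26 ± 0.0610 (limma, Benjamini-Hochberg adjusted p = 0.0439), the 1 lysosomal gene higher there, against 102 genes in all (1.02%). The other probe set of Mcoln1 gave 0.46 in MyD88 KO and 0.28 in TRIF KO.

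Ctsk encodes cathepsin K, a collagen-degrading protease best known from osteoclasts. It read 10.86, 10.70 and 10.46 in wild type, 11.08, 11.16 and 11.03 in MyD88 KO and 11.03, 11.01 and 10.83 in TRIF KO (log2 expression values at 0, 1 and 4 h). All MyD88 KO arrays lay above wild type, while the TRIF KO array at 4 h lay below the unstimulated wild-type one. The difference was 0.41 ± 0.0729 in MyD88 KO (limma, Benjamini-Hochberg adjusted p = 0.00456, higher at 3 of 3 times) and 0.28 in TRIF KO, which was not called (limma, Benjamini-Hochberg adjusted p = 0.0911). Gaa, the acid glucosidase that degrades glycogen, read 9.40, 9.69 and 9.29 in wild type, 9.79, 9.79 and 9.74 in MyD88 KO and 9.71, 9.88 and 9.66 in TRIF KO. Its MyD88 KO arrays were nearly level and lay above wild type by 0.31 ± 0.0739 (limma, Benjamini-Hochberg adjusted p = 0.0221, higher at 3 of 3 times), and the TRIF KO estimate of 0.29 was not called (limma, Benjamini-Hochberg adjusted p = 0.0842). The other probe set of Gaa gave 0.20 and 0.21.

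Smpd1, with the values given above, was higher in MyD88 KO by 0.28 ± 0.0765 over the 3 times (limma, Benjamini-Hochberg adjusted p = 0.0450). The difference from wild type was 0.07 at 0 h, 0.30 at 1 h and 0.47 at 4 h. Ctsh, an aminopeptidase that also processes surfactant protein, read 11.78, 11.59 and 11.51 in wild type, 11.89, 11.95 and 11.78 in MyD88 KO and 11.81, 11.76 and 11.64 in TRIF KO. It was higher in MyD88 KO by 0.25 ± 0.0672 (limma, Benjamini-Hochberg adjusted p = 0.0417), although its MyD88 KO array at 4 h and its unstimulated wild-type array differed little. Ctsh lies on chromosome 9, as does Myd88 itself. The 5 others lie on chromosomes 4 (Fuca1), 8 (Mcoln1), 3 (Ctsk), 11 (Gaa) and 7 (Smpd1).

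Some markers of fibroblasts moved with the same contrasts. The log2 of the summed signal of 7 fibroblast markers was 9.37 to 9.44 on the wild-type arrays, 9.82 to 9.93 in MyD88 KO and 9.75 to 9.94 in TRIF KO. Of the 5 past the filter, Col3a1, Col1a2 and Dcn were called higher in MyD88 KO and in TRIF KO, against 4.56% and 1.18% of all genes. Col3a1 passed the filter only through the knockout arrays. In wild type it read 5.42, 5.34 and 5.10 at 0, 1 and 4 h. Col1a1 and Pdgfra passed the filter, were called in neither knockout, and had overlapping genotypes. At 0, 1 and 4 h Pdgfra read 6.57, 6.72 and 6.76 in wild type and 6.72, 6.61 and 6.61 in MyD88 KO. The levels of Lum and Thy1 stayed below a log2 value of 6 on every array. Of the 9 macrophage markers 2 were called higher and 2 lower in MyD88 KO. In the same contrast 2 of 6 B cell markers past the filter were lower, and 1 of 2 mesothelial markers past it was higher. Of all genes 4.56% were higher and 2.68% lower there. In TRIF KO 1 macrophage marker was called higher and 2 B cell markers lower, against 1.18% and 0.419% of all genes. The neutrophil, T or NK cell, eosinophil, mast cell and dendritic cell lists held no marker called in either knockout. The part of these cells in the genotype differences was not tested.

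Genes at the other end had small estimates, and none passed. In MyD88 KO the most negative was -0.14 for Gm2a, the activator protein that presents ganglioside GM2 to its hydrolase. It read 11.34, 11.08 and 11.05 in wild type, 10.91, 11.14 and 11.01 in MyD88 KO and 11.14, 11.33 and 11.08 in TRIF KO (log2 expression values at 0, 1 and 4 h), and the genotypes overlapped. The other probe set of Gm2a, with a mean of 10.67, gave 0.03 in MyD88 KO. Lgmn, with values given above, followed at -0.09, then Lipa, the acid lipase that frees cholesterol from its esters, at -0.08. Lipa read 13.35, 13.28 and 13.20 in wild type, 13.17, 13.20 and 13.22 in MyD88 KO and 13.21, 13.27 and 13.23 in TRIF KO. The unstimulated wild-type array was the highest of these 9, and the arrays at 4 h lay close together.

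In TRIF KO 1 of the 41 genes was higher, Fuca1, against 118 genes in all (1.18%), and 0 were lower, against 42 (0.419%). At an unadjusted p under 0.05 there were 8 of 41 (19.5%), against 12.99% of all genes. The count was 2 without the unstimulated wild-type array, with Ctsk the added gene, and 0 without the arrays of 1 h. The estimates were positive for 29 of 41 genes, but for 20 after centring on reference transcripts and for 24 after centring on the median gene, so no direction is given for the group. The 3 TRIF KO arrays lay all above the wild-type arrays for Fuca1, Tpp1 and Mcoln1, against 5.93% of all genes. They lay all below for Ctss, Npc2 and Atp6v1e1, against 5.49%. The most negative estimate was -0.23 for Atp6v1e1 (limma, Benjamini-Hochberg adjusted p = 0.224), followed by -0.12 for Galns and -0.08 for Ctsl. For Atp6v1e1 the other, dimmer probe set past the filter gave 0.03. Galns, the sulfatase that acts on keratan sulfate and chondroitin 6-sulfate, read 10.32, 10.22 and 10.04 in wild type, 10.19, 10.37 and 10.24 in MyD88 KO and 10.11, 10.12 and 10.00 in TRIF KO, with overlapping genotypes.

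**Figure D4:**
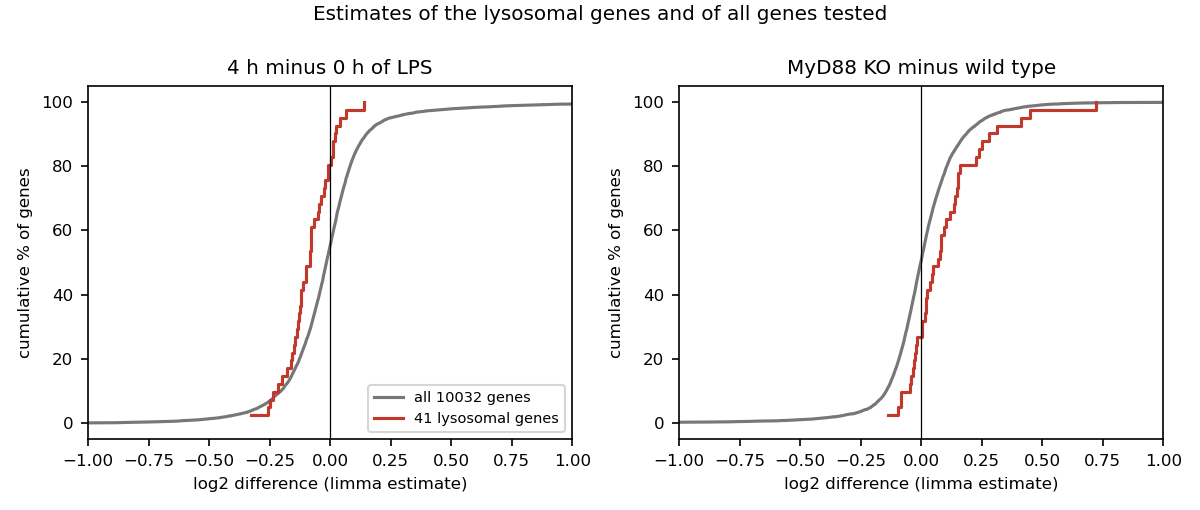
Cumulative share of genes (percent) against the limma estimate (log2 difference) for the 41 lysosomal genes (red) and all 10032 genes (grey), for 4 h against 0 h of LPS and for MyD88 KO against wild type; the axis ends at a difference of 1 in either direction. At 4 h the red line lies to the left (median -0.08 against -0.02) and in MyD88 KO to the right (median 0.07 against 0.00).

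By role, the glycosidases and sulfatase had positive MyD88 KO estimates for 9 of 9 genes, under both centrings too, with a median of 0.16 and 2 called. Besides Fuca1 and Gaa, the estimates were 0.24 for Gla, 0.23 for Neu1 (a sialidase), 0.16 for Man2b1 (an alpha-mannosidase), 0.15 for Glb1 (the beta-galactosidase), 0.15 for Gusb (the beta-glucuronidase), 0.07 for Galns and 0.02 for Hexa (a subunit of beta-hexosaminidase). None of these 7 passed. Their other probe sets past the filter gave -0.09 for Gla, -0.05 and 0.08 for Neu1, 0.08 for Man2b1 and 0.09 for Gusb. The 8 pump subunits had positive estimates in 7, with a median of 0.08 and 0 called, and the 6 membrane proteins in 5, with a median of 0.12 and Mcoln1 called. The other membrane proteins were Npc1 at 0.14, Scarb2 (the receptor that delivers glucocerebrosidase) at 0.14, the glycoproteins Lamp2 and Lamp1 at 0.10 and 0.02, and the macrophage sialomucin Cd68 at -0.02. Further probe sets of Lamp2 gave -0.02, -0.04 and 0.04. The proteases had a median of 0.00. Their estimates were 0.08 for the tripeptidyl peptidase Tpp1, 0.04 for Ctsz, 0.02 for Ctsb, 0.00 for Ctsd, -0.02 for the protective protein Ctsa, -0.03 for Ctss, -0.05 for Ctsl and -0.08 for Ctsc. Among the lipid genes, with a median of -0.03, the ceramidase Asah1 and the thioesterase Ppt1 stood at -0.03, the sterol-binding Npc2 at 0.02 and Psap at 0.00. The other probe set of Ppt1, with a mean of 9.46, gave 0.21.

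The difference between the knockout and wild type was not alike at all times. Between unstimulated arrays, 19 of the 41 genes were higher in MyD88 KO and 22 lower, with a median of -0.02. At 1 h 35 were higher, with a median of 0.11, and at 4 h 32, with a median of 0.07. Of all genes 55.0%, 52.5% and 44.5% were higher at 0, 1 and 4 h. In TRIF KO 17, 35 and 29 of 41 were higher at these times, against 50.5%, 59.9% and 46.7% of all genes. Within wild type, 35 of 41 genes were lower at 1 h than unstimulated, with a median of -0.10, against 54.9% of all genes lower. Within MyD88 KO 10 of 41 were lower and within TRIF KO 22, against 58.1% and 47.3% of all genes. The counts against wild type share its 3 arrays, the counts within a genotype share its unstimulated array with those at 4 h, and none was tested, since each rests on 1 array a group.

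The genes whose promoters hold TCACGTGA did not move as a block. Their 4 h estimates were -0.26 for Gla, -0.13 for Mcoln1, -0.10 for Ctsa, -0.10 for Atp6v1a, -0.08 for Atp6v0d1 and 0.01 for Ctsd, and none of the 6 passed. In MyD88 KO Mcoln1 was called, and the others stood at 0.24, -0.02, 0.05, 0.12 and 0.00 for Gla, Ctsa, Atp6v1a, Atp6v0d1 and Ctsd. Of the transcription factors that bind this element, Tfeb had a 4 h estimate of -0.11 and Mitf of 0.11, and neither passed. Tfe3 is not analysed here. Tfec, a relative found mainly in myeloid cells, rose by 0.93 at 4 h (limma, Benjamini-Hochberg adjusted p = 0.000972). Its log2 expression value at 0, 1 and 4 h was 8.53, 8.64 and 9.99 in wild type, 8.44, 8.52 and 9.15 in MyD88 KO and 8.54, 8.74 and 9.17 in TRIF KO. Mitf was called lower in MyD88 KO, by -0.30 (limma, Benjamini-Hochberg adjusted p = 0.0411). In the list of MiT factors and mTORC1 and nutrient sensors at the lysosome, 18 of 28 genes were tested. At 4 h 1 rose and 3 fell, against 4.62% and 7.13% of all genes. The 3 were Sesn1 (-0.70), Lamtor4 (-0.35) and Flcn (-0.24). In MyD88 KO 1 was called lower, against 2.68% of all genes. In TRIF KO 0 were called by limma, where 2 of 18 (11.1%) had an unadjusted p under 0.05, against 12.99% of all genes.

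Further lysosomal genes outside the 41 changed in both directions. Of 76 listed, 54 were tested. At 4 h 4 rose and 9 fell, against 4.62% and 7.13% of all genes. At an unadjusted p under 0.05 in limma there were 22 of 54 (40.7%), against 23.9% of all genes. Mcoln2, a channel related to Mcoln1, rose by 1.12, whereas the lysosomal phospholipase Pla2g15, the heparan sulfatase Sgsh and the acid phosphatase Acp2 stood at -0.73, -0.63 and 0.54. The median over the 54 was -0.10, against -0.08 over the 41. In MyD88 KO 7 of the 54 were higher and 5 lower, against 4.56% and 2.68% of all genes, and the median over the 54 was 0.07. Chosen after their values were seen, Hgsnat, an acetyltransferase of heparan sulfate breakdown, was higher there by 1.43 and Ctse, an aspartic protease of endosomes, was lower, at -1.21. In TRIF KO 1 was higher and 2 lower, against 1.18% and 0.419% of all genes. Of 24 further pump subunits and associated proteins, 14 were tested. At 4 h 1 fell, Oxr1 at -0.53, against 7.13% of all genes. In MyD88 KO 1 was higher, Tcirg1, the a3 subunit, at 0.25, against 4.56% of all genes. In TRIF KO 0 were called by limma, where 3 of 14 (21.4%) had an unadjusted p under 0.05, against 12.99% of all genes. As a check of the stimulus, all 6 genes of a list of LPS targets rose at 4 h, Cxcl2 by 2.71. Of 11 reference transcripts 0 passed in limma at either time. At an unadjusted p under 0.05 there were 1 at 1 h (9.09%) and 2 at 4 h (18.2%), against 5.41% and 23.9% of all genes.

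**Figure D5:**
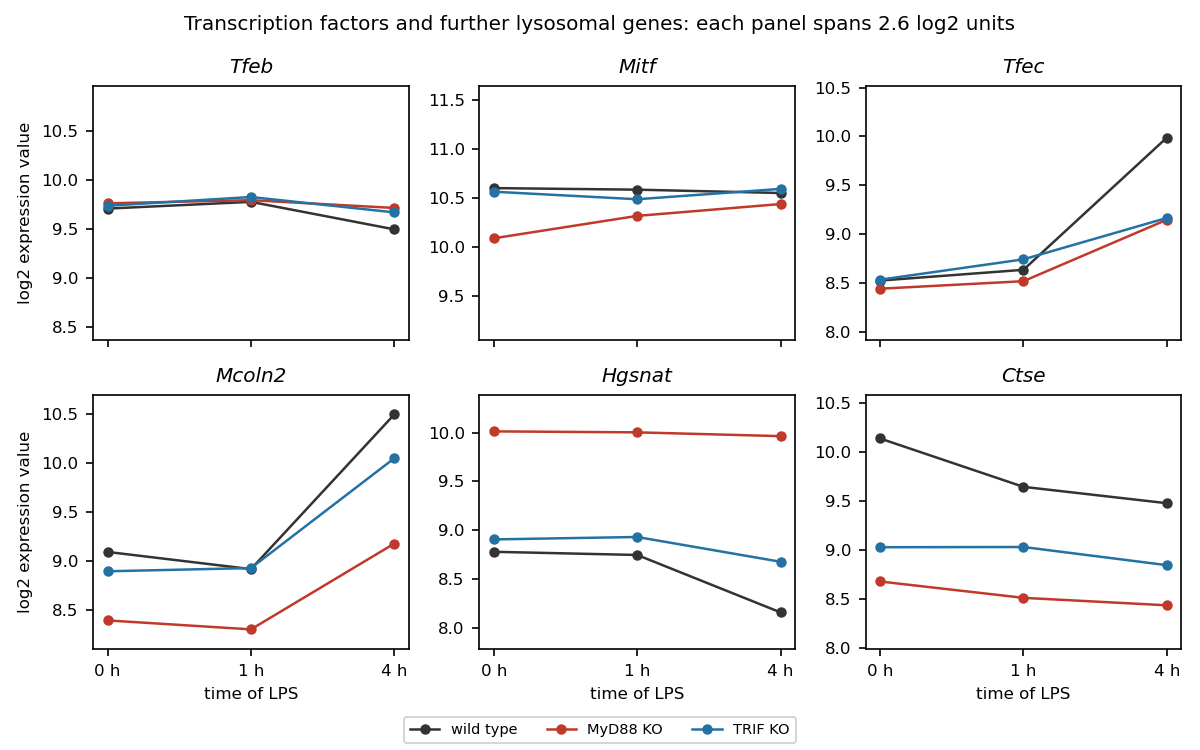
Log2 expression values of Tfeb, Mitf and Tfec and of the further lysosomal genes Mcoln2, Hgsnat and Ctse against hours of LPS (0, 1 and 4 h, drawn at equal steps), with 1 array per point and a line for each genotype. Tfec and Mcoln2 are highest at 4 h in every genotype, and the MyD88 KO line lies above the others for Hgsnat and below them for Ctse.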

How the data were processed

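Per the submitters' processing notes, the log2 values deposited by the authors for 22690 probe sets on 9 arrays come from RMA, which corrects background, normalizes quantiles and summarises probes. No version of RMA is stated. The values were used as deposited. Probe sets with 1 symbol in the platform annotation (20393) were named, with symbols updated through gene identifiers of RefSeq GRCm38.p6, which 20364 had. A gene took its probe set with the highest mean (12394 genes), and 10032 reached log2 6 on an array.

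Tests used limma 3.58.1 (lmFit, eBayes) in R 4.3.3, two-sided, with Benjamini-Hochberg adjustment over 10032 genes and a threshold of 0.05. The additive fit of genotype and time had 4 residual degrees of freedom and a prior of 8.39; a gene whose response differs between genotypes has a larger error there. The early and late fit had 3 and 10.3. Each group had 1 array, so comparisons of 2 arrays carry no test, and the number of arrays limits precision.

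The genes and gene lists were chosen with earlier results of these data known. Full values are given for the 6 highest and 6 lowest 4 h estimates, the 3 highest and 3 lowest of each knockout, and the 3 smallest p-values of a response difference, and for called genes. Of other lists, at most 4 called genes with the largest 4 h estimate are named, beside the MiT factors. Hgsnat, Ctse, Tcirg1 and Serpinb1a are named outside this rule, for their calls in a knockout. Alternatives for the early and late fit in wild type were added after seeing the data. Alternatives were other filters, probe sets, centring and prior, fits without the other factor, and arrays left out. No protein sequences were used.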

Additional observations from a re-analysis of the deposited data

How the results depend on the processing

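The count of lysosomal genes that fell at 4 h (2) was 4 with a filter on the mean of at least log2 7 and 4 with an intensity trend in the prior, 1 with either centring and 0 without the genotype term. With arrays left out it lay between 0 and 7, and it was 0 without the wild-type or the TRIF KO arrays and 5 without the MyD88 KO arrays. With the mean of all probe sets it was 3, namely Atp6v1c1, Lgmn and Mcoln1. The count higher in MyD88 KO (6) was 3 with probe sets of an s, x or a suffix left out, which left 31 genes without Gaa, Mcoln1 and Smpd1, while Ctsh, Ctsk and Fuca1 stayed called. It was 2 without the time term and 2 to 6 with arrays left out; the count in TRIF KO (1) was 0 to 2. The number lower at 4 h than early in wild type (3), under alternatives added after seeing the data, was 1 after centring on reference transcripts, 1 with values under log2 6 set to 6, and 1 to 4 with a 0 h or 1 h array left out. Apart from the genes removed by suffix, the cause was not tested. Fuca1 and Mcoln1 kept their call in MyD88 KO with each of 12 sets of arrays left out; Ctsk lost it in 2, Gaa in 6, and Ctsh and Smpd1 in 9 each. Lgmn lost its 4 h call in 9 and Atp6v1b2 in 5. The counts of 0 (at 1 h in either direction, higher at 4 h, lower in either knockout, and a response difference) stayed 0 under every alternative run. Neither early and late result was run with a 4 h array left out, which leaves that genotype without a late sample. The additive fit already sets arrays of 1 genotype against each other for time, and arrays of 1 time for genotype; the fits without the other term, given above, are the unpaired ones. Signals near the top of the scale may limit what could be seen for the brightest cathepsins and Psap.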

Other observations

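Genes that work beside the lysosome were counted at the same threshold. Of all genes 4.62% rose and 7.13% fell at 4 h. In MyD88 KO 4.56% of all genes were higher and 2.68% lower, and in TRIF KO 1.18% and 0.419%. Of 23 autophagy genes tested, 1 rose at 4 h and 5 fell. At an unadjusted p under 0.05 in limma there were 7 of 23 (30.4%), against 23.9% of all genes. The cargo receptor Sqstm1 rose by 0.73. Nbr1, another receptor, Uvrag, Map1lc3b and others fell, with estimates of -0.45, -0.41 and -0.34 for these 3. In MyD88 KO 1 was higher and 1 lower, and in TRIF KO 0 passed, with 3 at an unadjusted p under 0.05 in limma. Of 5 cathepsin inhibitors tested, 0 passed in limma after 4 h, with 0 at an unadjusted p under 0.05. Serpinb1a was higher in MyD88 KO by 0.26 and in TRIF KO by 0.47. Of 12 genes of multinucleated giant cells and osteoclasts, the protease Mmp9 rose at 4 h by 0.66 and the receptor Trem2 fell, at -0.34. In MyD88 KO 2 were higher, and in TRIF KO 1 was higher and 1 lower. Over the lysosomal genes, 22 had several probe sets, and 33 further probe sets passed the filter. Of these, 22 had the same sign as the probe set used at 4 h, 24 did for MyD88 KO and 22 for TRIF KO.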
